A study of Mus musculus with 24 samples.

Results

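The ventral prostates of AKR and FVB mice, which belong to different inbred strains, were compared on the 4 arrays titled for AKR and the 4 titled for FVB, 8 of the 24 arrays of a series that measured 6 strains. The other 4 strains, SWR, 129X1, BALB/c and C57BL/6, shared in the estimate of the spread, in the filter on low values and in the centring of the list scores, and their means are given beside those of AKR and FVB for a few genes. Each strain contributed 4 samples that the labels number as biological replicates, all from wild-type mice aged 8 weeks, on a standard mouse diet and without treatment. The labels give no transgene or deletion for either group and do not say how many animals went into a sample. Total RNA of the whole lobe was labelled with biotin and hybridised to Affymetrix arrays, on which a probe set is a group of short probes that together report the level of a transcript. The title of the series states a search for cancer modifiers through the expression of parental strains, so the comparison asks which transcripts differ between AKR and FVB before any tumour is present.

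In the ventral lobe of the rodent prostate, tall luminal cells secrete protein into ducts under the control of androgens, with basal cells beneath them and a sheath of smooth muscle and fibroblasts around them. Inbred mice of a strain are nearly identical to each other in their genomes, and different strains are not. An array reads RNA through hybridisation, and a strain whose gene differs in sequence under the probes gives a weaker signal at the same RNA level. On these arrays a sequence difference under the probes and a difference in RNA level cannot be told apart, and in RNA from a whole lobe neither can fewer cells of a type and less RNA per cell.

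The deposited columns all had a mean intensity of 143, and the 2% trimmed means of the 8 arrays lay between 97.0 and 102. The ratio of the 3' to the 5' probe set of actin was 1.10 to 1.29 in AKR and 1.19 to 1.42 in FVB. Every array correlated best with an array of its own strain (8 of 8), with Pearson correlations across probe sets of 0.940 to 0.958 within AKR, 0.956 to 0.965 within FVB and 0.910 to 0.941 between the strains. Msmb, a secretory gene of the prostate, was bright on all 8 arrays. Its rescaled intensity was 3754 to 8380.0 in AKR and 4416 to 7393 in FVB. Of 9 seminal vesicle and other lobe genes on the array, 6 did not pass the filter on low values, and the 3 tested, Ceacam10, Svs5 and Svs3a, lay between 9.09 and 61.6 in rescaled intensity. AKR replicate 1 stood apart from the other AKR arrays in Pbsn, the androgen-driven secretory protein probasin, with 899.6, 4229, 5773 and 4039 in AKR replicates 1 to 4 and 3633, 3969.8, 6489 and 4719.7 in FVB. FVB replicate 1 stood apart from the other FVB arrays in fat cell genes, and AKR replicates 2 and 3 stood apart in heat shock genes. Results that rest on these arrays are given below with and without them.

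AKR and FVB ventral prostates differed in single secretory, peptide and histocompatibility genes and in a few groups of genes. Mme, Azgp1 and H2-Q10 were higher in AKR, and Scgb2b27, Clu and Mgst1 were higher in FVB. Of the groups, interferon-stimulated, heat shock and DNA replication genes had calls mostly on the AKR side, and smooth muscle, matrix, fat and complement genes on the FVB side, with the counts given below. Of 15753 probe sets tested, 1171 (7.43%) differed between AKR and FVB at an adjusted p under 0.05 (limma, Benjamini-Hochberg), and are called here, of which 565 were higher in AKR and 606 higher in FVB. Differences are given as AKR minus FVB on the scale of log2(intensity + 16), which understates the fold change of dim probe sets. A difference of at least 2-fold was reached by 241 of the called probe sets (1.53% of those tested), 102 higher in AKR and 139 higher in FVB, and 51 reached 4-fold. With a pseudocount of 64 in place of 16 the 2-fold count was 115. The median difference over all tested probe sets was 0.015 and the median standard error 0.16, while the smallest called difference was 0.28. When only the 8 arrays were fitted, without the spread of the other strains, 710 probe sets were called. Leaving out 1 AKR or FVB array at a time gave 815 to 1050 calls, the fewest without FVB replicate 4.

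**Figure D1:**
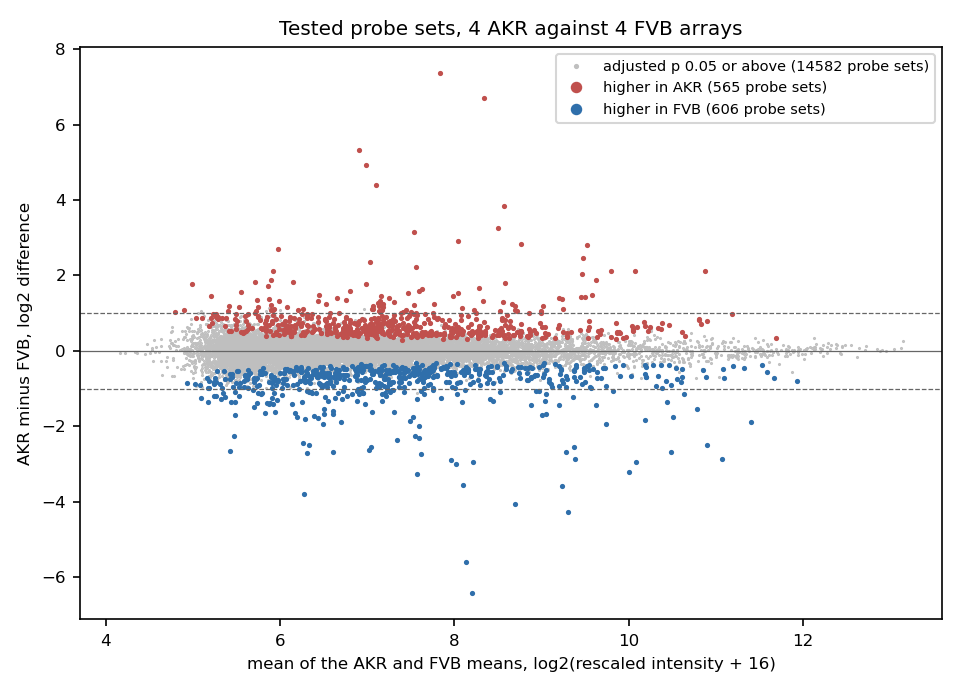
Mean level of each tested probe set over AKR and FVB (horizontal axis, log2 of rescaled intensity + 16) against the AKR minus FVB difference (vertical axis, log2), with 1 point per probe set and dashed lines at a 2-fold difference. The 565 red and 606 blue points are called higher in AKR and in FVB, with 241 of them beyond the dashed lines.

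Counted by gene, with the brightest tested probe set standing for the gene, 315 of 9418 genes (3.34%) were higher in AKR and 369 (3.92%) were higher in FVB. Called list members below are read at that probe set, and some had other tested probe sets that were not called. Among these were Adi1, Ccnd2, Cox8a, Csrp1, Ero1b, Fkbp4, Fn1, Hspb8, Klf5, Krt8 and Mcm7. Mfap5, Myh1, Myh11, Ndufb2, Odc1, Pdia4, Rrm1, Rsad2, Scd2, St6galnac4 and Stat2 were further ones. The 15 genes named for each strain below were the widest in difference among called genes whose 4 AKR and 4 FVB arrays did not overlap, and that rule selects large and cleanly separated differences. Among them 22 of 30 stayed called, in the same direction, under all 39 alternative settings (38 for Stx3, which in 1 setting had no value). The 8 others are given with the settings that ended their call. Of all 15753 tested probe sets, 1994 had no overlap between the AKR and FVB arrays, and of the 1171 called ones 1014. Absence of overlap is thus usual among called genes and adds little to the calls below.

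The widest difference higher in AKR belonged to H2-Q10, a class I histocompatibility gene known for a secreted product of the liver. Its rescaled intensity was 497, 741, 978 and 593 on the 4 AKR arrays and 3.22, 4.42, 4.94 and 17.9 on the 4 FVB arrays. The FVB arrays gave almost no signal while every AKR array was bright. The difference of 4.92 ± 0.24 (log2, SE) was 30.3-fold on the scale with the added 16 (adjusted p = 3.57e-13). Of the other strains, 129X1 was as high as AKR, with a mean log2 level of 9.69 against 9.44, and SWR was as low as FVB, with 4.61 against 4.52.

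Mme encodes neprilysin, a peptidase on the cell surface that cuts small peptides such as substance P. It read 2073, 2244, 1853 and 1641 in AKR and 207, 240.4, 271 and 343 in FVB, so the lowest AKR array was well above the highest FVB array, and the difference was 2.82 ± 0.13 (adjusted p = 2.7e-13). Both tested probe sets of Mme were higher in AKR. Tac1, the precursor of substance P, was higher in FVB instead, with 315, 361, 304 and 252 in FVB against 44.6, 26.04, 38.9 and 36.5 in AKR, a difference of -2.63 ± 0.17 (adjusted p = 9.39e-11). Ramp1, a partner of the receptor for another neuropeptide, calcitonin gene-related peptide, was 3.51-fold higher in AKR (adjusted p = 1.1e-08). Of 18 tested genes of neuropeptides, their processing and breakdown, Mme and another surface peptidase, Anpep, were higher in AKR and Tac1 in FVB. The shares over all genes were 3.34% and 3.92%, and the list's median difference was 0.04. The Anpep call (adjusted p = 0.0396) held only without AKR replicate 3 or FVB replicate 1 among the 8 arrays left out in turn (up to 0.14 otherwise).

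Azgp1, which encodes the secreted zinc alpha-2-glycoprotein, was among the brighter genes of the lobe and read 3362, 3451, 4393 and 4478 in AKR and 943, 891, 864 and 851 in FVB. The 4 FVB arrays agreed closely, and AKR was 4.32-fold higher (adjusted p = 3.52e-11). Acaa2, a mitochondrial thiolase of fatty acid oxidation, read 1122, 1195, 1122 and 1159 in AKR and 182, 137, 113 and 167 in FVB, and all 3 of its probe sets were higher in AKR. At this brightest Acaa2 probe set the other 4 strains lay nearer to AKR, between 9.02 and 9.85 in mean log2 level, with FVB lowest. At the others AKR was 2.10-fold and 2.08-fold above FVB. There 129X1 was about as low as FVB, with 8.12 against 8.16 and 8.12 against 8.00. Ndufs5, a subunit of complex I of the respiratory chain, was 3.44-fold higher in AKR, with 46.2 to 58.3 in FVB and 190.1 to 232 in AKR. Sdc4, a heparan sulfate proteoglycan of the cell surface, differed by 2.03 ± 0.11, but only at 1 of its 2 probe sets.

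Malat1, a long nuclear RNA, also had a wide difference at 1 probe set and not at the others. That probe set read 955, 1635, 771 and 1222 in AKR and 64.4, 113, 132 and 105 in FVB, a difference of 3.26 ± 0.21, while the differences of the other 4 were between 0.10 and 0.30 and were not called. All 4 other strains lay nearer to AKR at that probe set. Stx3, a syntaxin of apical membrane traffic, was likewise higher in AKR at 1 of 3 probe sets, where the 4 FVB values lay between 0.832 and 1.75. The remaining genes named on the AKR side were D17H6S56E-5 (difference 2.91, both probe sets), Hspa1a and Hspa1b (below), the dystroglycan mannosyltransferase Pomt1 (1.82), the epithelial glutathione peroxidase Gpx2 (1.73) and the potassium channel Kcnk3 (1.67, 3 of 3 probe sets). With the smooth muscle score of each array as a term in the model, Gpx2 (difference 1.51, adjusted p = 0.0703) and Kcnk3 (1.31, adjusted p = 0.0804) were no longer called.

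On the FVB side the widest difference was that of Scgb2b27, a member of the secretoglobin family of small secreted proteins. It read 1889.9, 2635, 1265 and 1264 on the FVB arrays and 110.4, 53.5, 73.6 and 121 on the AKR arrays, a difference of -4.06 ± 0.42 or 16.6-fold (adjusted p = 3.51e-07). Within each strain its arrays spread over a little more than a doubling, far less than the gap between the strains. Clu encodes clusterin, a secreted chaperone known for its rise in the prostate after castration. It read 6267, 5562, 7084 and 4629 in FVB and 754, 727, 804 and 847 in AKR (7.31-fold, adjusted p = 9.09e-13), and all 4 of its probe sets were higher in FVB. The other 4 strains lay nearer to AKR in Clu, at mean log2 levels of up to 10.15 against 12.51 in FVB.

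Gdpd3, a phosphodiesterase of lysophospholipids, read 678, 556, 488 and 593 in FVB and 50.7, 47.3, 30.1 and 56.3 in AKR (9.64-fold). Cyp2b10, a cytochrome P450 of foreign compounds, was 7.72-fold higher in FVB, with 698 to 995 there and 70.03 to 109.5 in AKR, at all 3 probe sets. Mgst1, a membrane-bound glutathione transferase, read 1582, 2062, 1854 and 1698 in FVB and 279.8, 290.3, 209.7 and 172 in AKR (7.25-fold, adjusted p = 6.65e-11). In each of these 3 genes every FVB array was above every AKR array by a wide margin. Ctla2a, an inhibitor of cathepsins, read 154 to 294 in FVB and 19.8 to 28.8 in AKR, and the actin regulator Cap1 338 to 401 and 63.1 to 95.4, at both of its probe sets. Tph1, the enzyme that starts serotonin synthesis, read 147 to 242 in FVB and 20.04 to 62.02 in AKR, and the other 4 strains were at the AKR side or below it, at mean log2 levels of 5.23 to 5.35.

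Psca, a lipid-anchored surface protein known as prostate stem cell antigen, read 157, 202, 179 and 115 in FVB and 71.2, 15.1, 20.3 and 27.9 in AKR, where replicate 1 was the highest of the AKR arrays. Its difference of -1.95 ± 0.29 was called (adjusted p = 7.54e-05), and was -1.30 with an adjusted p of 0.0758 when the smooth muscle score was in the model. The fat cell genes Fabp4, Adipoq and Car3 and the histocompatibility genes H2-D1 and H2-K1 complete the FVB side and are described below with their groups.

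**Figure D2:**
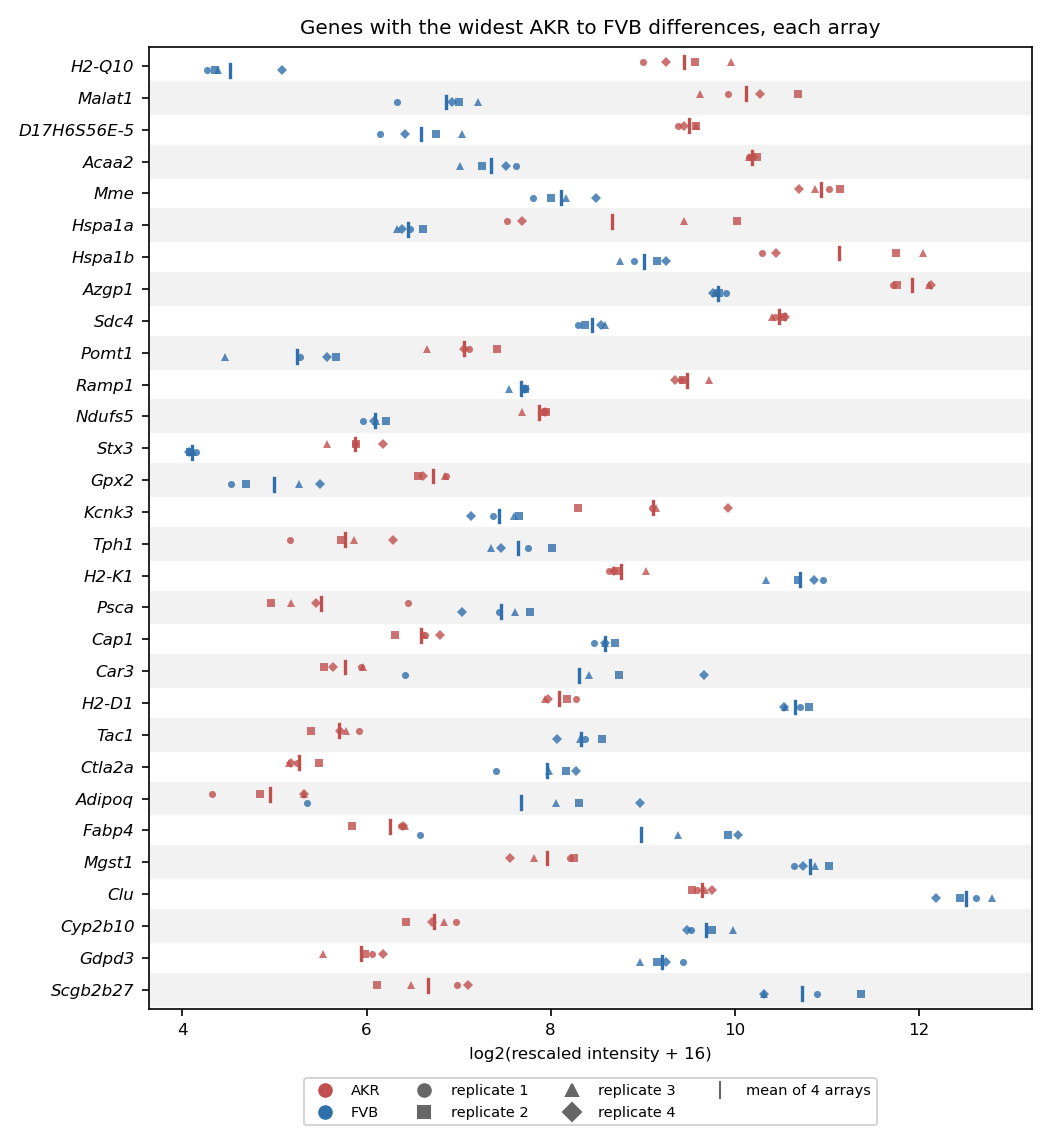
The 15 genes with the widest differences higher in AKR (upper rows) and the 15 higher in FVB (lower rows), with the log2 of rescaled intensity + 16 on the horizontal axis, 1 point per array and a bar at the mean of 4. The AKR and FVB points do not overlap in any row, by the choice of genes, and Hspa1a, Fabp4, Adipoq and Car3 show the widest spread within a strain.

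Class I histocompatibility molecules present peptides from inside the cell, and their H2 genes on chromosome 17 are among the most variable of the mouse genome. Of 13 tested genes of class I molecules and antigen processing, 4 were higher in AKR (H2-Q10, Psmb8, Psmb9 and Tap2). At their brightest probe set 2 were higher in FVB (H2-D1 and H2-K1), though for H2-D1 the probe sets went in both directions. Over all genes 3.34% were called higher in AKR and 3.92% higher in FVB. The immunoproteasome subunit Psmb8 read 152, 170.4, 141 and 136 in AKR and 50.1, 84.96, 94.3 and 92.96 in FVB (adjusted p = 0.000473), and Psmb9 read 124, 116, 80.3 and 102 and 52.3, 67.2, 56.1 and 59.2 (adjusted p = 0.00287). These genes had no overlap between the strains, while B2m, the light chain shared by class I molecules, read 3519 to 5566 in AKR and 4052 to 5154 in FVB and was not called. Tap2, a subunit of the peptide transporter, was 1.44-fold higher in AKR (adjusted p = 0.0153). The Tap2 call was lost without AKR replicate 4 or without FVB replicate 4 (adjusted p up to 0.0628).

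The probe sets of the classical class I genes went in both directions. The brightest of 8 tested probe sets of H2-D1 read 1659, 1782, 1479 and 1469 in FVB and 294, 275, 229.8 and 234 in AKR. At another H2-D1 probe set AKR read 604, 720.4, 595 and 549 and FVB 11.2, 8.31, 19.8 and 18.9, a difference of 4.39, while at yet another AKR read 4.24, 4.14, 7.57 and 3.53 and FVB 326, 369, 192 and 234, a difference of -3.79. In all, 2 of the 8 were called higher in AKR and 4 higher in FVB, most of them of the kind that matches several related transcripts, so no direction is given for the RNA of H2-D1. Of the 4 probe sets of H2-K1, 3 were higher in FVB, with differences of -3.55 to -0.85, and the fourth read 261 to 397 in AKR and 207 to 244 in FVB, with no overlap in the other direction, and was not called.

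Class II molecules present peptides taken up from outside. Of 10 tested class II and loading genes, 2 were higher in AKR (against 3.34% of all genes) and none in FVB. H2-Eb1, a class II beta chain, read 265, 182, 248 and 228 in AKR and 94.9, 88.1, 105 and 128 in FVB, and Ctss, the cathepsin that trims the invariant chain, read 276, 307, 204 and 196 and 90.6, 111, 121 and 127. The beta chain of the other class II molecule, H2-Ab1, read 84.7 to 134 in AKR and 73.5 to 155 in FVB and was not called. The list had a median difference of -0.06, beside 0.011 over all genes. With the smooth muscle score in the model the difference of Ctss was 0.92 with an adjusted p of 0.0803.

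The secretory genes of the lobe differed gene by gene. Of 11 tested genes listed as ventral prostate secretions, Azgp1, Apof and Mme were higher in AKR and Scgb2b27 and Clu in FVB. The other 6 were not called. Mme encodes a peptidase of the cell surface and is also in the neuropeptide list. The shares over all genes were 3.34% and 3.92%, and the list's median difference was -0.15. Apof, an apolipoprotein, read 786, 1455, 1328 and 1092 in AKR and 345, 474, 359 and 476 in FVB (2.71-fold, adjusted p = 0.000105). Msmb, the beta-microseminoprotein, and Pbsn were not called; Pbsn had a difference of -0.57 with an adjusted p of 0.421, with AKR replicate 1 far below the other 7 arrays. All 5 calls kept their direction and passed the test with any AKR or FVB array left out.

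Among 17 tested genes of androgen response and luminal identity, 2 were higher in AKR (against 3.34% of all genes) and none in FVB. Tmprss2, an androgen-driven serine protease of the luminal surface, was 1.72-fold higher in AKR, reading 989.9, 856, 967 and 1067 against 716, 640.2, 493 and 421 (adjusted p = 0.00356). Zbtb16, a zinc finger repressor, was 1.63-fold higher (adjusted p = 0.0212), a call lost without AKR replicate 2 or FVB replicate 4 (adjusted p up to 0.1). The list's median was -0.02.

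Heat shock chaperones refold damaged proteins and are induced by heat and other stress through the factor Hsf1, which binds pairs of inverted GAA units in their promoters. Of 24 tested heat shock genes, 7 were higher in AKR (against 3.34% of all genes), 1 was higher in FVB, and the list's median difference was 0.41, beside 0.011 over all genes. The inducible Hsp70 genes led the list. Hspa1a read 168, 1025, 683 and 190.4 on the AKR arrays and 72.7, 81.7, 64.4 and 67.6 on the FVB arrays (difference 2.22 ± 0.41, adjusted p = 0.000837). Hspa1b read 1240.3, 3422, 4207 and 1385 in AKR and 464, 553, 416 and 596 in FVB (difference 2.12 ± 0.38, adjusted p = 0.000666), at all 3 of its probe sets. Both genes were above FVB on all 4 AKR arrays, but AKR replicates 2 and 3 were several times higher than AKR replicates 1 and 4. The log2 SD of Hspa1a was 1.25 in AKR and 0.12 in FVB, and that of Hspa1b 0.89 and 0.23. The standard errors rest on the spread of all 6 strains. Hspa1a and Hspa1b encode nearly the same protein, and their probe sets may share signal.

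The small chaperone Hspb1 read 1719.6, 2629, 3703 and 2348 in AKR and 1538, 1248, 1365 and 1593 in FVB (1.74-fold, adjusted p = 0.00257). Dnajb1, the partner of Hsp70, read 202, 367, 371 and 153 in AKR and 119, 164, 157 and 156 in FVB, where AKR replicate 4 fell within the FVB range. The Dnajb1 call was lost without AKR replicate 2, AKR replicate 3 or FVB replicate 1 (adjusted p up to 0.0862). The same pattern of AKR replicates 2 and 3 above 1 and 4 was seen in Hsph1, an Hsp110, which read 72.8, 341, 467 and 228 in AKR and 120.2, 119.9, 142 and 127 in FVB and was not called (adjusted p = 0.208). Smaller calls were those of Fkbp4 (0.53), Cdc37 (0.51) and Hspd1 (0.39), and the small chaperone Hspb8 was higher in FVB (-0.43). These did not hold over single arrays: the calls of Fkbp4 and Hspd1 were lost on leaving out any 1 of the 8 AKR and FVB arrays other than AKR replicate 1 (adjusted p up to 0.155), that of Hspb8 on leaving out any other than AKR replicate 4 (up to 0.0868), and that of Cdc37 without AKR replicate 2 or 4 or FVB replicate 3 or 4 (up to 0.123).

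The count of 7 depended on single arrays, with 3 without AKR replicate 2, 4 without AKR replicate 3, AKR replicate 4, or FVB replicate 1, 3 or 4, and 10 without AKR replicate 1. Without both AKR replicates 2 and 3, a setting chosen after their levels were seen, 2 of the 24 were called higher in AKR and the median was 0.21. Hspa1a then differed by 1.16 (adjusted p = 0.0373) and Hspa1b by 1.36 (adjusted p = 0.045). Both Hsp70 genes were still called, but only AKR replicates 1 and 4 were left. The arrays were dropped by the levels of these same genes, so the 2 calls are no independent support. With the smooth muscle score in the model none of the list was called, at a median of 0.27, and the adjusted p was 0.0803 for Hspa1a and 0.0567 for Hspa1b. Without FVB replicates 2, 3 and 4 none was called either, at a median of 0.36, with differences of 2.20 for Hspa1a and 2.23 for Hspa1b (adjusted p = 0.137 and 0.0882). The heat shock score of an array, the mean of the list's log2 values centred on all 24 arrays, was 0.13, 0.61, 0.70 and 0.23 in AKR and -0.02, -0.02, -0.04 and -0.08 in FVB. Immediate early genes, another rapidly induced group, had 1 of 26 called higher in AKR, Dusp6 (against 3.34% of all genes), and a median of 0.01. The Dusp6 call was lost without AKR replicate 2 or 3 or FVB replicate 1 or 4 (adjusted p up to 0.0796).

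The promoters of the heat shock genes called higher in AKR are shown because these genes were called in the same direction. The windows are from the RefSeq promoter table (GRCm38.p6), upstream of the start site, with the search letters GAANNTTC in capitals, which read the same on both strands.
Hspa1a (chr17:34972233-34972280, minus strand): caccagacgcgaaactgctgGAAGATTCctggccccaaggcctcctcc
Hspb1 (chr5:135887782-135887849, plus strand): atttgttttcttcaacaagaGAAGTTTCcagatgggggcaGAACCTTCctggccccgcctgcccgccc
Hspd1 (chr1:55088044-55088091, minus strand): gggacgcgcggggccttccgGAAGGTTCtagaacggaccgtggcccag
Fkbp4 (chr6:128438780-128438827, minus strand): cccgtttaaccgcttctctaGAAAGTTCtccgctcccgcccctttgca
The window of Hspa1b (chr17:34959315-34959362, minus strand) had the same sequence as that of Hspa1a. Hspb1 held the letters at 2 places and the others at 1. Of the 7 genes called higher in AKR, 5 held the letters in a listed promoter, as did 11 of the 19 tested list genes that have one. Of all 27025 genes with a listed promoter 9.04% held them in at least 1, and of all 32851 listed promoters 7.86%. No match was found in the windows of Dnajb1 and Cdc37.

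Interferon-stimulated genes are switched on by antiviral cytokines through factors of the Stat and Irf families, among them Stat2 and Irf7. Of 23 tested genes of the list, 8 were higher in AKR (against 3.34% of all genes) and none was higher in FVB, and the median difference was 0.59. Ifit3, an antiviral protein that acts on foreign RNA, read 88.1, 102, 81.7 and 92.6 in AKR and 38.6, 39.1, 30.04 and 31.3 in FVB (2.11-fold, adjusted p = 0.00107). Ifih1, the sensor of double-stranded RNA known as MDA5, read 157, 243, 124 and 159.6 and 76.7, 74.6, 82.1 and 103 (adjusted p = 0.00592), and Oasl2, of the oligoadenylate synthetase family, read 40.7, 58.1, 43.1 and 48.3 and 6.71, 32.8, 5.07 and 30.2 (adjusted p = 0.00946). In these 3 genes the AKR arrays lay above all FVB arrays, and the call held with any AKR or FVB array left out.

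Rtp4 read 109.5, 208, 91.2 and 132 in AKR and 40.4, 67.1, 47.4 and 73.2 in FVB, and its call (adjusted p = 0.0315) was lost without AKR replicate 2 or 4 or without FVB replicate 1 or 3 (adjusted p up to 0.112). Stat2 was 1.64-fold higher in AKR (119 to 147 against 66.4 to 87.4, adjusted p = 0.0016) and Irf7 1.7-fold (129.8 to 183 against 74.8 to 106, adjusted p = 0.0269). The Irf7 call was lost without AKR replicate 2, 3 or 4 or FVB replicate 2 or 4 (adjusted p up to 0.0777). Ifit1 and Rsad2 were also called, Ifit1 not without AKR replicate 1 or 2 (adjusted p up to 0.0601) and Rsad2 only with all arrays or without AKR replicate 3 or FVB replicate 3 (up to 0.103 otherwise). Of the uncalled members, Oas1a read 211 to 346 in AKR and 138 to 186 in FVB, with an adjusted p of 0.0531. In all, 21 of the 23 differences were above 0. The count was 4 without AKR replicate 2, 5 without AKR replicate 4 and 5 without AKR replicates 2 and 3. It was 3 with the adipocyte score and 0 with the smooth muscle score in the model, where the medians were 0.53 and 0.44, and 1 without FVB replicates 2, 3 and 4, at a median of 0.65. None of 6 tested lymphocyte markers was called, and Cd3d, Cd3g, Cd4 and Cd8a did not pass the filter on low values.

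The promoters of the interferon-stimulated genes called higher in AKR were searched on both strands for GAAANNGAA, the core that Irf factors bind, and those with a match upstream of the start site are shown for the same reason. All of these matches lie on the strand opposite to the gene, so that the capitals read TTCNNTTTC.
Ifit1 (chr19:34640760-34640833, plus strand): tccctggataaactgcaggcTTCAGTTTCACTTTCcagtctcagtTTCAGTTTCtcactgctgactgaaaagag
Ifit3 (chr19:34583354-34583455, plus strand): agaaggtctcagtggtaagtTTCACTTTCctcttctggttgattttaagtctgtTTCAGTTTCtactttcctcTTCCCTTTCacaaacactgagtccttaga
Ifih1 (chr2:62646339-62646387, minus strand): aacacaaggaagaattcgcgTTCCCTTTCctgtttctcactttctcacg
Rsad2 (chr12:26456543-26456591, minus strand): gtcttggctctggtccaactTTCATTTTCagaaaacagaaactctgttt
Stat2 (chr10:128270257-128270305, plus strand): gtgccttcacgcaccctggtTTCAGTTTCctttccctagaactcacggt
Ifit1 and Ifit3 each held 3 matches, and 2 of those of Ifit1 overlap. Of the 7 called genes with a listed promoter 5 held a match, as did 11 of the 18 tested list genes that have one. Of all genes with a listed promoter 9.76% held one, and of all listed promoters 8.56%. No match was found in the windows of Irf7 and Oasl2.

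Genes of DNA replication and cell division that were called were higher in AKR. Of 24 tested, 6 were higher in AKR (against 3.34% of all genes), none in FVB, and the median difference was 0.34. Mcm6, a subunit of the replicative helicase, read 71.2, 58.1, 42.5 and 21.8 in AKR and 6.71, 4.33, 6.08 and 8.50 in FVB (adjusted p = 0.00122). Tk1, thymidine kinase, read 60.5, 87.3, 77.1 and 65.4 and 6.89, 40.7, 29.5 and 34.2 (adjusted p = 0.00128). Cdk1, the kinase that starts mitosis, read 86.3, 121, 76.7 and 100.7 and 56.2, 51.3, 23.95 and 53.96 (adjusted p = 0.0233). For these genes no AKR array was as low as any FVB array. The Cdk1 call was lost without AKR replicate 2, AKR replicate 4 or FVB replicate 3 (adjusted p up to 0.109), and that of Pcna, the sliding clamp of DNA polymerase (1.41-fold, adjusted p = 0.0177), without AKR replicate 2 or FVB replicate 1 (adjusted p up to 0.0598). Mki67, the usual marker of cycling cells, read 63.9, 45.8, 58.1 and 79.5 in AKR and 39.6, 40.1, 48.2 and 49.2 in FVB and was not called (adjusted p = 0.363). With 1 array left out 4 to 6 of the list were called, with the adipocyte score in the model 2, with the smooth muscle score 0, and without FVB replicates 2, 3 and 4 the count was 1. The remaining calls were Mcm7 (1.35-fold) and Rrm1 (1.3-fold, lost without AKR replicate 4 or FVB replicate 2 or 3, adjusted p up to 0.0834). At its other probe sets Mcm7 differed by 0.31, 0.34 and -0.09 and was not called.

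The called markers of smooth muscle, fibroblasts and fat were higher in FVB, those of fat on 3 of the 4 FVB arrays. Of 12 tested smooth muscle genes 6 were higher in FVB (against 3.92% of all genes) and none in AKR, and all 12 differences were below 0, with a median of -0.67. Acta2, smooth muscle actin, read 2579.5, 2917, 2439 and 2222 in AKR and 4151, 3660.3, 5090.0 and 3792 in FVB (1.63-fold, adjusted p = 0.00314). The actin-binding protein Tagln read 1384, 1767, 1479.5 and 1300.1 and 2273, 2324, 2455 and 2569.7 (adjusted p = 0.00723), and Csrp1, a LIM protein of muscle, read 908, 1114, 866 and 784 and 1549, 1279.6, 1473 and 1667 (adjusted p = 0.00175). The strains did not overlap in any of the 3, as in 1014 of the 1171 called probe sets. Myh11, the myosin heavy chain of smooth muscle, was 1.69-fold higher in FVB (adjusted p = 0.016), a call lost without AKR replicate 4 or FVB replicate 3 (adjusted p up to 0.0553). Actg2 was lost without AKR replicate 1, 3 or 4 or FVB replicate 4 (adjusted p up to 0.141) and Cnn1 on leaving out any 1 of the 8 AKR and FVB arrays other than AKR replicate 2 (up to 0.108). Without AKR replicate 4 the list had 3 calls, and without AKR replicates 2 and 3 also 3.

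Of 15 tested fibroblast and matrix genes, 7 were higher in FVB (against 3.92% of all genes) and none in AKR. Of the uncalled differences 2 were above 0, and the median was -0.56. Fn1, fibronectin, read 343, 299, 311 and 382 in AKR and 609, 692, 769.7 and 791 in FVB (2.09-fold, adjusted p = 7.01e-05). Postn, a matrix protein of remodelling tissue, read 80.8, 96.1, 69.7 and 44.7 and 137, 151, 173 and 165 (adjusted p = 0.00145), and Sparc, a collagen-binding glycoprotein, read 462, 619, 419 and 643 and 1094, 966, 916 and 1279.6 (adjusted p = 0.00633). Mfap5, of the microfibrils, was 1.93-fold higher (adjusted p = 0.00944). Every FVB array was above every AKR array in these 4 genes, and their calls held with any AKR or FVB array left out. Dcn, Col6a1 and Col3a1 were also called, Col6a1 not without FVB replicate 4 (adjusted p = 0.0588) and Col3a1 not without AKR replicate 1 or 4 or FVB replicate 4 (up to 0.0878). Without FVB replicates 2, 3 and 4 together, a setting chosen after their fat gene levels were seen, no fibroblast, smooth muscle or fat gene was called, at medians of -0.47, -0.56 and -0.36 with FVB represented by replicate 1, which was assumed to vary like the other strains' arrays.

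Fat cell genes split the FVB arrays. Adipoq, the fat hormone adiponectin, read 24.8, 301, 251 and 487 in FVB and 4.05, 12.6, 23.99 and 23.9 in AKR; Fabp4, the fatty acid carrier of fat cells, read 79.5, 960.4, 654 and 1037 and 67.1, 41.3, 69.4 and 68.5; and Lpl, lipoprotein lipase, read 121, 433, 299 and 689 and 63.6, 76.5, 104 and 72.8. FVB replicate 1 lay just above the AKR arrays and the other 3 FVB arrays were far higher. Of 7 tested fat genes 5 were higher in FVB (Car3, Fabp4, Adipoq, Lpl and Cd36), against 3.92% of all genes, with a median difference of -1.86. The brightest probe set of Car3, a carbonic anhydrase of fat and muscle, overlapped between the strains, and the second one, which is among the widest differences, read 69.3, 412, 325 and 799 in FVB and 45.5, 30.6, 46.4 and 33.8 in AKR. Without FVB replicates 2, 3 and 4 the difference was -0.40 for Adipoq and -0.32 for Fabp4, with adjusted p of 0.886 and 0.924. For Car3 it was -0.64 (adjusted p = 0.778). With the smooth muscle score in the model the adjusted p of Fabp4, Adipoq and Car3 was 0.191, 0.084 and 0.199, and with the adipocyte score, which holds these genes, none was called. Of the 3 probe sets of Fabp4, 1 was not called.

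**Figure D3:**
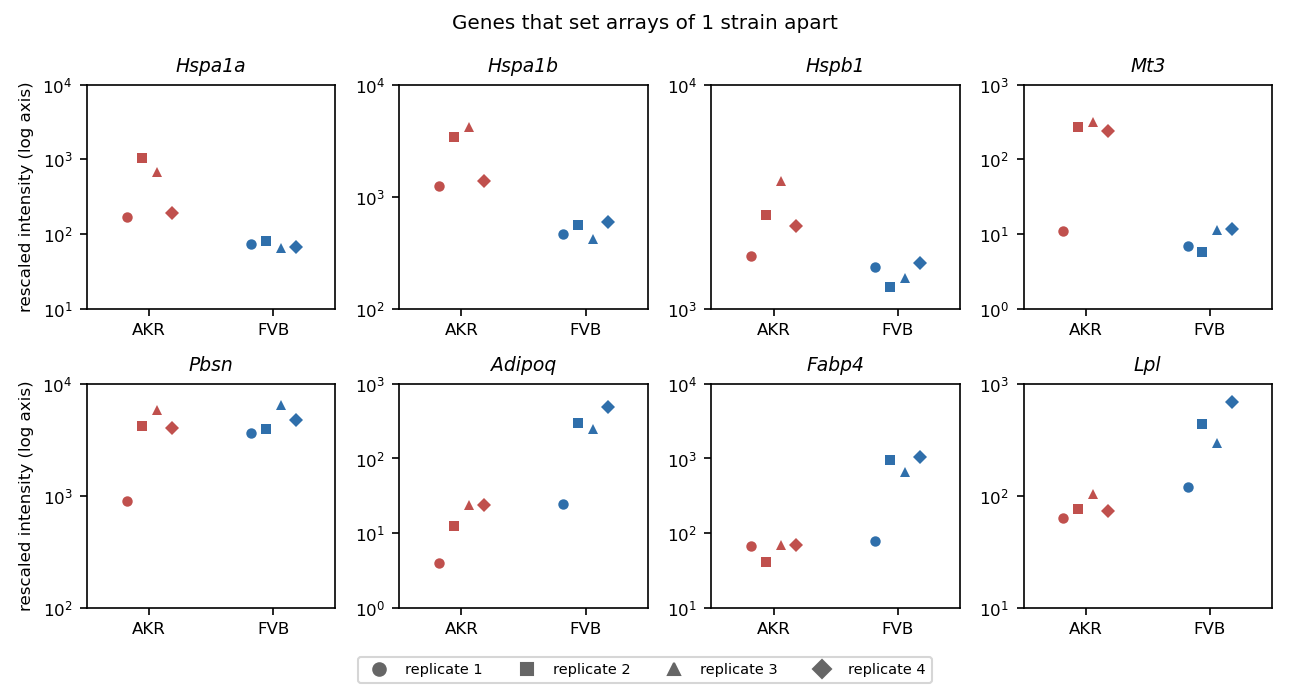
Rescaled intensity (log axis) of 8 genes that set arrays of 1 strain apart, with 1 point per array and its shape giving the replicate. Hspa1a, Hspa1b and Hspb1 are highest on AKR replicates 2 and 3, Mt3 and Pbsn are lowest in AKR on replicate 1, and Adipoq, Fabp4 and Lpl are lowest in FVB on replicate 1.

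The smooth muscle and fibroblast scores moved with the strain, and the adipocyte score mainly set FVB replicates 2, 3 and 4 apart. The smooth muscle score was -0.07, -0.02, -0.30 and -0.33 on AKR replicates 1 to 4 and 0.39, 0.27, 0.48 and 0.56 on FVB replicates 1 to 4, and the fibroblast score was -0.32, -0.22, -0.30 and -0.33 and 0.13, 0.11, 0.25 and 0.46. The adipocyte score was -1.02, -0.84, -0.48 and -0.63 in AKR and -0.42, 1.68, 1.38 and 2.11 in FVB. No AKR array reached the lowest FVB array in any of the 3. In the adipocyte score, however, FVB replicate 1 (-0.42) lay close to AKR replicate 3 (-0.48). By contrast the luminal epithelial score was -0.09 to -0.01 in AKR and -0.28 to -0.04 in FVB, with Epcam 1.42-fold higher in AKR (adjusted p = 0.0026) and the keratin Krt8 1.3-fold higher in FVB (adjusted p = 0.0273, lost without AKR replicate 2 or 4 or FVB replicate 1, 2 or 3, adjusted p up to 0.0935). None of 8 basal genes was called. Among other cell types, 1 of 9 endothelial genes (Tek), 1 of 11 macrophage genes (Fcgr3), 1 of 2 mast cell genes (Cpa3) and 1 of 2 erythroid genes (Alas2) were higher in FVB (against 3.92% of all genes). Of 10 skeletal muscle genes 1 (Myh1) was higher in AKR (against 3.34%). Of these, Alas2 held with any AKR or FVB array left out, Tek was lost without AKR replicate 3 or FVB replicate 4 (adjusted p up to 0.0599), Fcgr3 on leaving out any 1 of these 8 arrays other than AKR replicate 4 or FVB replicate 1 (up to 0.122), Cpa3 any other than AKR replicate 1 (up to 0.127) and Myh1 any other than AKR replicate 3 or FVB replicate 4 (up to 0.132). None of 3 nerve genes was called.

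With the adipocyte score added to the model the number of called probe sets was 355, of which 315 were among the 1171, and with the smooth muscle score it was 293, of which 282 were among them. All of these shared calls kept their direction. Since the scores differ between the strains themselves, such a term can take up part of a strain difference. The part of these marker genes in the results on the heat shock, interferon and replication genes was not tested beyond these fits.

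**Figure D4:**
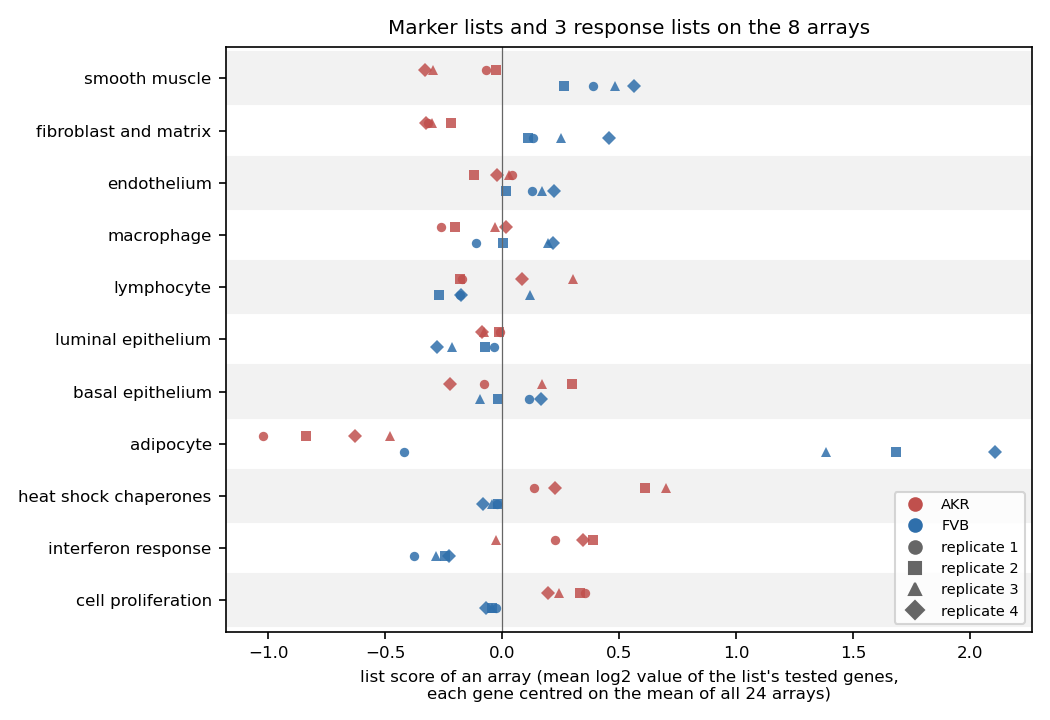
Score of 8 cell type lists and 3 response lists (horizontal axis, mean log2 value of the list's genes with each gene centred on all 24 arrays) on the 4 AKR and 4 FVB arrays, 1 point per array. Smooth muscle, fibroblast and adipocyte scores are higher on every FVB array than on any AKR array, and heat shock, interferon and proliferation scores are higher on every AKR array. In the adipocyte score FVB replicate 1 lies close to the AKR arrays.

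Complement proteins tag and lyse cells, and their regulators stop that on the body's own cells. Of 15 tested complement genes 3 were higher in FVB (against 3.92% of all genes) and none in AKR, and the median difference was -0.13. Serping1, the inhibitor of C1, read 321, 379, 324 and 250.4 in AKR and 714, 793, 927 and 875 in FVB (2.53-fold, adjusted p = 6.16e-07), and Cd59a, which blocks the lytic pore, read 173, 137, 164 and 163 and 337, 395, 396 and 372 at the brighter of 2 called probe sets (adjusted p = 1.14e-06). C2 was 1.97-fold higher (adjusted p = 0.00417). All 3 held with any AKR or FVB array left out, and the first 2 are inhibitors while C2 is an activating component.

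Zinc is concentrated by the prostate, and the zinc genes that differed were higher in AKR: 3 of 22 metallothionein and zinc transport genes (against 3.34% of all genes), with none higher in FVB. Without AKR replicate 1, 4 were higher in AKR and 1 in FVB. The zinc importer Slc39a8 read 519, 478, 356 and 353 in AKR and 187, 201, 191 and 184 in FVB (adjusted p = 0.000327), and the importer Slc39a4 read 113, 125, 134 and 113 and 42.01, 53.4, 59.6 and 13.8 (adjusted p = 0.0114). The Slc39a4 call was lost without FVB replicate 4 (adjusted p = 0.0608). Mt3, a metallothionein, read 10.9, 269, 312 and 242 in AKR and 6.80, 5.80, 11.2 and 11.6 in FVB, so that AKR replicate 1 was within the FVB range and the other 3 AKR arrays stood far above it. Its difference of 2.69 ± 0.49 was called (adjusted p = 0.000809) and was 3.54 without AKR replicate 1 (adjusted p = 4.42e-10). The standard error rests on the spread of all 6 strains, while the log2 SD of Mt3 was 1.72 in AKR and 0.17 in FVB. Without AKR replicates 2 and 3 it was 1.75 with an adjusted p of 0.0539. The zinc exporter Slc30a2 read 3.56, 78.4, 96.2 and 63.00 in AKR and 4.96, 7.88, 28.3 and 46.3 in FVB and was not called.

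Enzymes of glutathione and detoxification went both ways, with 4 of 33 higher in AKR, 2 higher in FVB and a median of 0.02. The shares over all genes were 3.34% and 3.92%. Beside Mgst1, the peroxidase Gpx2 read 100.6, 78.4, 99.9 and 82.2 in AKR and 7.08, 9.87, 22.4 and 29.01 in FVB (adjusted p = 0.000402), and Gpx8, a peroxidase of the endoplasmic reticulum, read 193, 218, 180.0 and 197 and 71.7, 57.9, 89.1 and 94.2 (adjusted p = 0.00071). Gstk1, a mitochondrial and peroxisomal transferase, was 1.64-fold higher in FVB (adjusted p = 6.08e-05). Of 33 glycosylation enzymes, 4 were higher in AKR and 2 in FVB (against 3.34% and 3.92% of all genes). Galnt2, which starts mucin-type O-glycans, read 61.2, 102, 104 and 76.9 in AKR and 381, 295, 301 and 329 in FVB (3.4-fold, adjusted p = 4.47e-08), at 2 of 3 probe sets. The sialyltransferases St6galnac4 (2.1-fold, adjusted p = 0.000102) and St6galnac6 (2.11-fold, adjusted p = 0.0124) and the ganglioside enzyme B4galnt1 (1.57-fold, adjusted p = 0.000631) were higher in AKR. Galnt3, a relative of Galnt2, was 1.43-fold higher in FVB (adjusted p = 0.0087). St6galnac6 passed the filter on low values in only 4 of the 8 fits with an AKR or FVB array left out. It was called in those, but the filter fixed which fits could call it, so they add no support. Without AKR replicate 1 or AKR replicate 3 the count of glycosylation genes higher in AKR was 2.

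In the endoplasmic reticulum, where secreted proteins fold, 3 of 31 genes were higher in AKR and 2 in FVB (against 3.34% and 3.92% of all genes). The disulfide isomerase Pdia6 read 1613, 3084, 2957 and 2232 in AKR and 1244, 1325, 1227 and 1547 in FVB (adjusted p = 0.00111), with AKR replicates 2 and 3 highest, as in the heat shock genes. Pdia3 was 1.43-fold higher in AKR (adjusted p = 0.0076), and Pdia4 was called at an adjusted p of 0.0484, a call lost with any of the 8 arrays left out (up to 0.141). Without AKR replicates 2 and 3 none of the list was called higher in AKR. Sec61b, a subunit of the translocon, read 843, 959, 1052 and 811 and 1905, 1493, 1793 and 1793, and the oxidase Ero1b 77.5, 81.2, 75.8 and 117 and 193, 166, 170.2 and 139, both higher in FVB (adjusted p = 4.68e-06 and 0.000911).

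Of 19 ion and water transport genes 3 were higher in AKR and 1 in FVB (against 3.34% and 3.92% of all genes). Kcnk3 read 532, 299, 548 and 960.2 in AKR and 149, 186, 179 and 124 in FVB, with AKR replicate 4 the highest, and the water channel Aqp5 read 51.1, 53.5, 33.9 and 25.9 and 99.01, 107, 95.7 and 112 (adjusted p = 0.000101). The chloride channel regulator Clca1 read 13.2 to 40.1 in AKR and 1.56 to 6.65 in FVB (adjusted p = 0.00602), and Scnn1b, of the epithelial sodium channel, 112 to 136 and 51.5 to 84.1 (adjusted p = 0.000588). Without AKR replicate 3 the counts were 5 and 2, and without FVB replicate 1 the FVB count was 2. In the polyamine and methionine salvage list, with 1 of 16 called each way, Adi1 was 1.9-fold higher in AKR (adjusted p = 0.000585) and Odc1, the first enzyme of polyamine synthesis, 1.41-fold higher in FVB (adjusted p = 0.00158).

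Of 40 tested tumour suppressors and oncogenes of prostate cancer, 3 were higher in AKR and 1 in FVB, with a median of 0.06, against 3.34% and 3.92% of all genes. Tgfbr2, a receptor of transforming growth factor beta, read 472, 371, 353 and 298 in AKR and 194, 258, 248 and 245 in FVB (adjusted p = 0.00361), and its call held with any array left out. The epithelial factor Klf5 read 572, 547, 509 and 371 and 263, 307, 257 and 262 (adjusted p = 0.0196). The Klf5 call was lost without AKR replicate 1 or 2 or FVB replicate 3 or 4 (adjusted p up to 0.0605). Another Klf5 probe set differed by -0.12, with overlap, and was not called. Cyclin D2, Ccnd2, was 1.48-fold higher in AKR (adjusted p = 0.0364) and the receptor Erbb2 1.48-fold higher in FVB (adjusted p = 0.0256), and each call was lost with 6 of the 8 arrays left out in turn, Ccnd2 without AKR replicate 1, 3 or 4 or FVB replicate 2, 3 or 4 (adjusted p up to 0.109) and Erbb2 without AKR replicate 1, 2 or 3 or FVB replicate 1, 2 or 3 (adjusted p up to 0.087). The count higher in AKR was 1 without AKR replicate 1, FVB replicate 3 or FVB replicate 4. Other lists lay near the background: 1 of 41 respiratory chain genes and 1 of 22 ribosomal protein genes were called in each direction (Ndufs5, described above, is not in that list), and of 29 genes of cholesterol and fatty acid synthesis 1 was higher in AKR and 2 in FVB. Of these calls Cox8a, Rplp0 and Tm7sf2 held with any AKR or FVB array left out, while Fasn was lost without AKR replicate 1 or FVB replicate 2 or 4, Ndufb2 without AKR replicate 1 or 4 or FVB replicate 2 or 4, Scd2 without AKR replicate 3 or 4 or FVB replicate 2, 3 or 4, and Rpl14 on leaving out any of these 8 other than AKR replicate 4 (adjusted p up to 0.147).

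**Figure D5:**
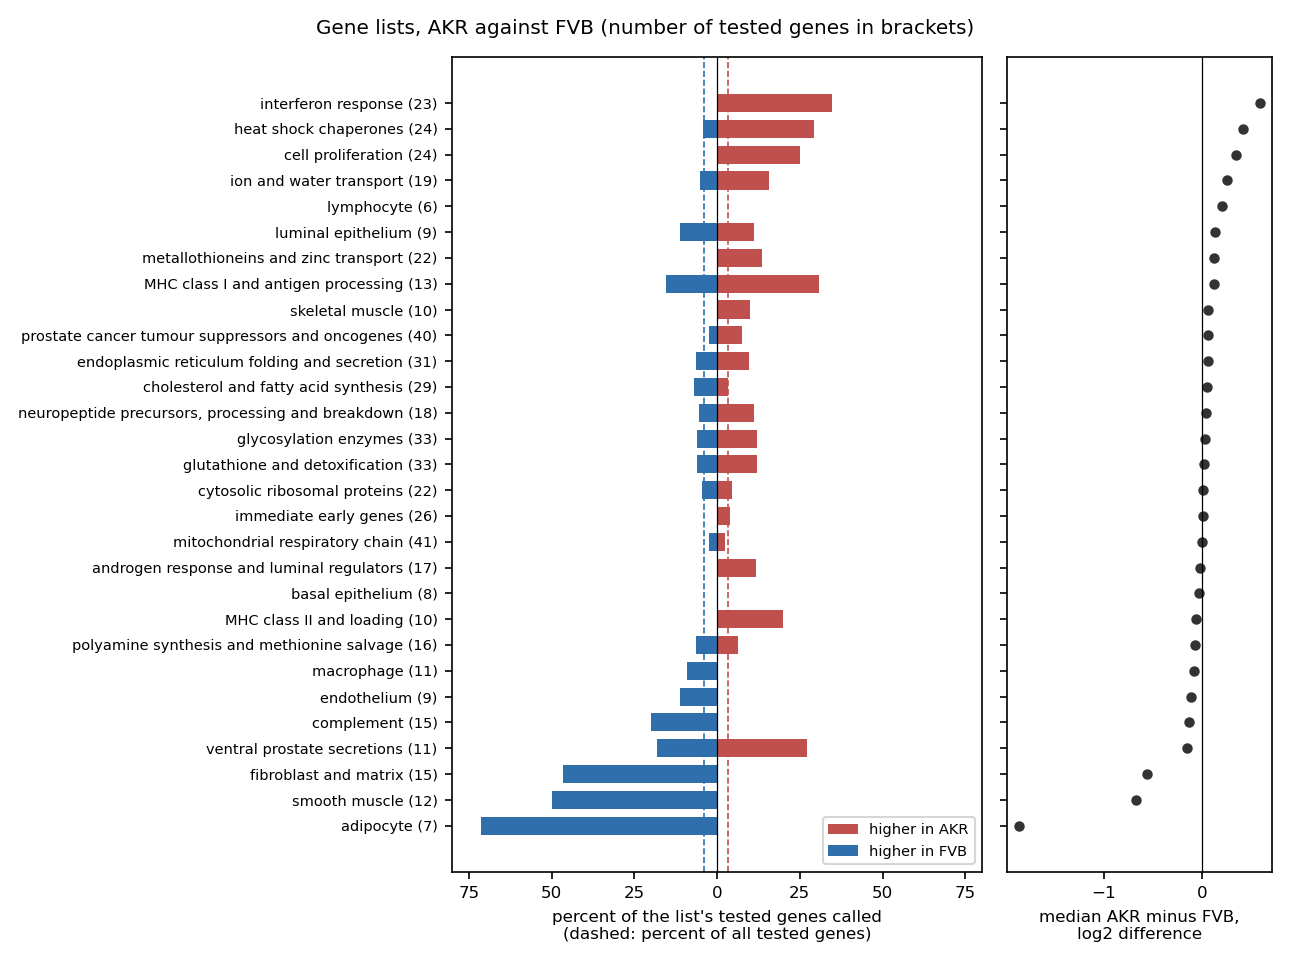
Percent of the tested genes of each list called higher in AKR (red, to the right) and higher in FVB (blue, to the left), with dashed lines at 3.34% and 3.92% of all genes, and in the right panel the list's median difference (log2). Interferon, heat shock and proliferation lists lie at the AKR end and fat, smooth muscle and fibroblast lists at the FVB end.

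Of 3311 genes with several tested probe sets, 63 had all probe sets called in 1 direction, 409 had some called, 2834 had none, and 5 had calls in opposite directions. Those 5 were H2-D1 and, with narrower gaps, Dst, Tubb5, Mbd1 and Stk24. Dst, a linker of the cytoskeleton, had 2 probe sets higher in AKR, by up to 1.16, and 1 higher in FVB (-0.78). For these genes neither direction is given as that of the gene.

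Of 9407 tested genes placed on the chromosomes, 3 runs of 3 neighbouring genes were called in the same direction. Pomt1, Uck1 and Swi5 on chromosome 2 were higher in AKR, by 0.72 to 1.82. Rnf2, Niban1 and Edem3 on chromosome 1 were higher in FVB, by 0.40 to 0.69, and Ero1b, Gpr137b and Nid1 on chromosome 13 by 0.65 to 1.62. By chromosome, leaving aside the Y with 5 tested genes and no call, the called share ran from 3.85% on the X to 10.9% on chromosome 1. It was 10.3% on chromosome 6 and 7.26% over all genes. The share higher in AKR was highest on chromosome 17, at 5.54%, then 5.11% on chromosome 1, against 3.34% of all genes. Chromosome 17 holds Hspa1a, Hspa1b and the H2 genes, of which H2-D1 and H2-K1 were higher in FVB at their brightest probe sets.

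For the 241 probe sets at least 2-fold apart, the other 4 strains showed how often 1 of the pair stood alone. In 31 of them all 4 other strains were nearer to AKR and in 54 all were nearer to FVB, and in the remaining ones the strains were divided. At the probe sets by which the genes were named, the first kind held Clu, Malat1, Acaa2 and Tph1. The second held Hspa1a, Hspa1b, Pomt1, Gpx2 and the brightest probe sets of H2-D1 and H2-K1, where AKR was the strain apart. At another H2-D1 probe set BALB/c stood apart instead, at 9.78 against 6.50 in AKR. At another H2-K1 probe set AKR (8.40) lay between FVB (7.93) and 129X1 (9.19).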

How the data were processed

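The values were probe set intensities of 24 mouse ventral prostate arrays, 4 for each of 6 strains, of which the AKR and FVB arrays are compared here. Per the submitters' processing notes, the deposited intensity values came from MAS5, which combines the probes of a probe set into 1 value on a linear scale. Its version and settings are not given in the sources used here. All deposited columns shared 1 mean, and in AKR replicate 1 the values had at most 1 decimal, unlike those of the other arrays. The intensities were rescaled to a common 2% trimmed mean of 98.7, and log2(intensity + 16) was taken. Of 22690 probe sets 64 control probe sets were left out, and 15753 above their own array's 40th percentile on at least 4 arrays were tested, while 6873 were not. The array platform's annotation gave 1 gene symbol to 20380 probe sets, several to 691 and none to 1555, and 20351 of the first matched a RefSeq gene.

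A linear model with 1 coefficient per strain was fitted over all 24 arrays with limma 3.58.1 in R 4.3.3, and the contrast AKR minus FVB was tested with moderated statistics and Benjamini-Hochberg adjustment over all tested probe sets, at an adjusted p under 0.05. The fit was first tested on simulated data. Named genes are, in each direction, the 15 with the widest difference among called genes whose arrays do not overlap, at the brightest such probe set, and of each gene list up to 4 called members with the widest difference and the members that define it, along with runs of at least 3 neighbouring called genes and the 5 genes with the widest gap between probe sets called in opposite directions. Other members named with their values were chosen after those were seen. The comparison, the lists and the motifs were chosen with earlier results of these data known. The number of arrays limits the precision, and the p-values measure the spread between samples that the labels call biological replicates, with no more said of their animals.

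Deviations from the strain means correlated at -0.11 to 0.15 between AKR and FVB samples of the same number. Of the 4 AKR samples, 2 correlated best with the FVB sample of their own number. The best match was sought among all 4 FVB samples. With so few samples these values cannot show whether the numbers pair the samples. The main fit has no block. Alternatives were the pseudocount, the filter, the normalization, the samples fitted, array weights, an intensity trend, the replicate block, marker scores as terms, and leaving out arrays. Genes with no probe set of a single symbol were not used here.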

Additional observations from a re-analysis of the deposited data

Results flagged for a closer look

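Of 260 sets of 4 arrays examined, a gene or a list score in 1 strain, 12 held an array that lay far from the other 3. Chance gives about 1 in 20, so such arrays were no more frequent than chance would make them. All values are log2(intensity + 16) or, for scores, the mean of centred log2 values.

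Among the genes with the widest differences, H2-Q10 in FVB was 5.08 on replicate 4 against 4.26 to 4.39 on the others, Ramp1 in FVB was 7.55 on replicate 3 against 7.71 to 7.72, and Fabp4 in AKR was 5.84 on replicate 2 against 6.38 to 6.42. These gaps are small beside the differences between the strains.

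Mt3 in AKR was 4.75 on replicate 1 against 8.01 to 8.36 on the other 3 arrays, the widest of these gaps. The kinase Cdk1 in FVB was 5.32 on replicate 3 against 6.07 to 6.17, and without that array the Cdk1 call was lost. The chaperone Dnajb1 in FVB was 7.08 on replicate 1 against 7.43 to 7.49, and without that array its call was lost too.

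The oxidase Ero1b in AKR was 7.05 on replicate 4 against 6.52 to 6.60. Replicate 3 of FVB was low in Epcam, with 10.06 against 10.43 to 10.50, and in Odc1, with 9.71 against 9.87 to 9.90. Klf5 in FVB was 8.34 on replicate 2 against 8.09 to 8.13.

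The score of the class I and antigen processing list in FVB was -0.18 on replicate 4 and -0.27 on each of the others, and the neuroendocrine score, which rests on 1 tested gene, was -0.24 on FVB replicate 2 against 0.05 to 0.10.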

How the results depend on the processing

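Against 1171 calls, 710 were made when only the 8 AKR and FVB arrays were fitted (658 shared with the 1171), 355 with the adipocyte score (315 shared) or 293 with that of smooth muscle (282 shared) in the model, 268 without FVB replicates 2, 3 and 4 (236 shared), and 762 without AKR replicates 2 and 3 (652 shared). The last pair of settings was chosen after seeing the data. Leaving out 1 of the 24 arrays gave 815 to 1227 calls and 226 to 265 at least 2-fold, against 241. With a pseudocount of 64 the 2-fold count was 115. Fitting the replicate number as a block gave 1114 calls, of which 1062 were among the 1171. Fabp4 turned from -2.73 to 0.0343 with the adipocyte score, of which it is a member, in the model (adjusted p = 0.979). The other changes of filter, normalization, pseudocount, weights or trend gave 1068 to 1319 calls. Calls shared with the 1171 had the same direction under all 39 settings. Of 105 called list members, 68 kept the call in each fit with an AKR or FVB array left out in which they were tested. For St6galnac6 these were 4 of the 8 fits. The other 37 lost the call in some. Over the settings the median difference of all probe sets moved between -0.007 and 0.030. Dim probe sets, whose signal is near the added 16, have folds that depend on the pseudocount.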

Other observations

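Some of the widest differences lay at probe sets without a gene symbol: of 1171 calls 120 were at probe sets without a single symbol, 70 of them with none. The widest of these read 3118, 2962, 1659 and 4782 in AKR and 1.75, 0.866, 3.17 and 1.48 in FVB, a difference of 7.37 ± 0.19 (adjusted p = 3.3e-18), and the other 4 strains were as low as FVB, at mean log2 levels of 4.09 to 4.32. The widest of those higher in FVB read 3279.6, 2562, 2917 and 2210.5 in FVB and 39.1, 7.50, 12.2 and 11.8 in AKR, a difference of -6.43 ± 0.30 (adjusted p = 1.87e-13). Both exceed the widest difference of any named gene.

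Genes with the widest spread within AKR mostly set replicate 1 apart. Slc22a12, a urate transporter, read 25.05, 631, 284 and 257 on AKR replicates 1 to 4, the ribonuclease Rnase1 71.9, 582, 789.7 and 375, the lectin Itln1 2.41, 105, 136 and 55.7, and the lipase-related Pnliprp1 2.70, 84.1, 89.03 and 39.8. In all 4 replicate 1 was the lowest AKR array, as in Pbsn, Mt3 and Slc30a2. In FVB the same genes read 395, 70.1, 855 and 571 for Slc22a12, 199.7, 142, 367 and 571 for Rnase1 and 35.8, 46.7, 63.7 and 59.5 for Itln1, and the FVB arrays also spread widely in Slc22a12. Qpct, the glutaminyl cyclase, did the reverse in AKR, with 108, 4.54, 4.36 and 33.6, so that replicate 1 was the highest. Within FVB the widest spreads were those of Car3, Fabp4 and Adipoq, then of Thrsp, a lipogenic regulator, with 7.54 to 231, and Slc22a12. The next were Mthfd1 (14.7, 51.9, 42.3 and 196), Cdc42ep5 (98.1, 8.92, 113 and 97.1), Shroom3 (8.73, 88.3, 71.1 and 8.78) and Rad9a (126, 45.99, 95.6 and 8.87), in which different arrays were the lowest. The genes of this section were chosen for their spread, and no test was made of them.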
